A study of Rattus norvegicus with 48 samples.

Results

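Apobec2, listed as ENSRNOG00000012303, is 1 of the 31998 genes of the count table, and its values are described here in all 48 libraries. The gene was chosen because its counts were lower after immobilization than in controls in both muscles and in both lines, so that contrast is given as a description without a test. The plantaris and soleus of 24 female rats aged 14 months, from generation 19 of a selective breeding programme, were profiled by RNA sequencing. The rats were low responders to endurance training (LRT, 12 rats) or high responders (HRT, 12 rats), and none of the groups carried an engineered allele. In each line 6 rats underwent hindlimb immobilization in a cast for 3 d (HI) and 6 were controls with no cast (CTRL), which gave 8 groups of 6 libraries. Rats of a line share their breeding, so a difference between LRT and HRT belongs to these breeding lines.

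Apobec2 encodes a member of the AID/APOBEC family of zinc-dependent cytidine deaminases. Relatives in the family edit cytosine in RNA or DNA, whereas for Apobec2 itself no agreed substrate has been established. It is expressed mainly in skeletal muscle and heart, and mice without the gene have muscle with more slow fibres, lower body mass and a mild myopathy with altered mitochondria. The plantaris is mainly a fast-twitch muscle and the soleus mainly a slow-twitch muscle of the rat hindlimb.

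The totals of estimated counts were between 26.8 M and 36.4 M (M, mega) per library, and Apobec2 had between 3424 and 35701 estimated counts, so counting error was small beside the spread between rats. RNA integrity numbers (RIN) in the labels were from 7.8 to 8.6. The lowest of them were below the limit that the methods of the study state for each sample. All 6 of the fast fibre markers were higher in CTRL plantaris than in CTRL soleus in both lines, beside 17% of tested genes in LRT and 18.9% in HRT, and 4 of the 5 slow fibre markers were lower, beside 15.6% and 19.9%, the exception being Pln, which encodes phospholamban.

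The stretch of DNA just before the annotated start of Apobec2 is shown to give the sequence context of the gene whose RNA was measured. The 250 bases before the start lie at chr9:20062311-20062560 on the + strand of GRCr8 and are from RefSeq. The deposited counts were made on another build, Rnor_6.0, and no position was converted. Capitals mark the matches to the letters CANNTG, the E-box that myogenic regulators such as MyoD and myogenin can bind, and to TATAAA, the letters of a TATA box.

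Apobec2 promoter: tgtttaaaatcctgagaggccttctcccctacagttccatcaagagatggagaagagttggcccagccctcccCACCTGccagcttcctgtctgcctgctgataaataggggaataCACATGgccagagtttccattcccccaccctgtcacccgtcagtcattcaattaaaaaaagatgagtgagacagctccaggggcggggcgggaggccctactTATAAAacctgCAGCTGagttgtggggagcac

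Both strands were searched. The E-box letters matched at 3 places, cacctg from position -177 to -172, cacatg from -134 to -129 and cagctg from -21 to -16, counted with the annotated start as 0. They also matched in 65.2% of the 27457 RefSeq rat windows of the same length. The cagctg match is also a match to the narrower CAGCTG, which 11.9% of the windows held. TATAAA matched once, from -32 to -27, and 13.1% of the windows held it. The MEF2 consensus and the CArG box were not matched in this window, and they were held by 3.07% and 1.5% of the windows. These matches describe letters and were not tested for binding.

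Immobilized muscle had lower Apobec2 RNA than control muscle in each of the 4 comparisons of HI with CTRL, with fitted changes of -55.7% in LRT plantaris, -50.9% in HRT plantaris, -58.6% in LRT soleus and -55.2% in HRT soleus. Levels are given as CPM, the count relative to the library size after scaling by the trimmed mean of M values (TMM). In LRT plantaris the CTRL libraries ran from 320 to 442 CPM with a median of 411 CPM, and the HI libraries from 116 to 278 CPM with a median of 159 CPM. Each of the 6 HI values was below each CTRL value. In HRT plantaris the CTRL libraries ran from 338 to 426 CPM with a median of 382 CPM, and the HI libraries from 106 to 309 CPM with a median of 189 CPM. These groups did not overlap either. Over all 16960 tested genes, HI was below CTRL without overlap in 5.74% of genes in LRT plantaris and in 5.4% in HRT plantaris.

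The soleus held more Apobec2 RNA, and its HI values were spread more widely. In LRT soleus the CTRL libraries ran from 620 to 1260 CPM with a median of 970 CPM, and the HI libraries from 230 to 629 CPM with a median of 353 CPM. All but 1 of the HI values, 5 of 6, lay below the lowest CTRL value, and HI replicate 5 at 629 CPM exceeded only CTRL replicate 3 at 620 CPM. In HRT soleus the CTRL libraries ran from 755 to 1129 CPM with a median of 1051 CPM, and the HI libraries from 219 to 855 CPM with a median of 349 CPM. Here too 5 of 6 HI values lay below every CTRL value, and HI replicate 3, at 855 CPM, lay above 2 CTRL libraries. The share of tested genes with HI below CTRL and no overlap was 2.09% in LRT soleus and 2.31% in HRT soleus.

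**Figure D1:**
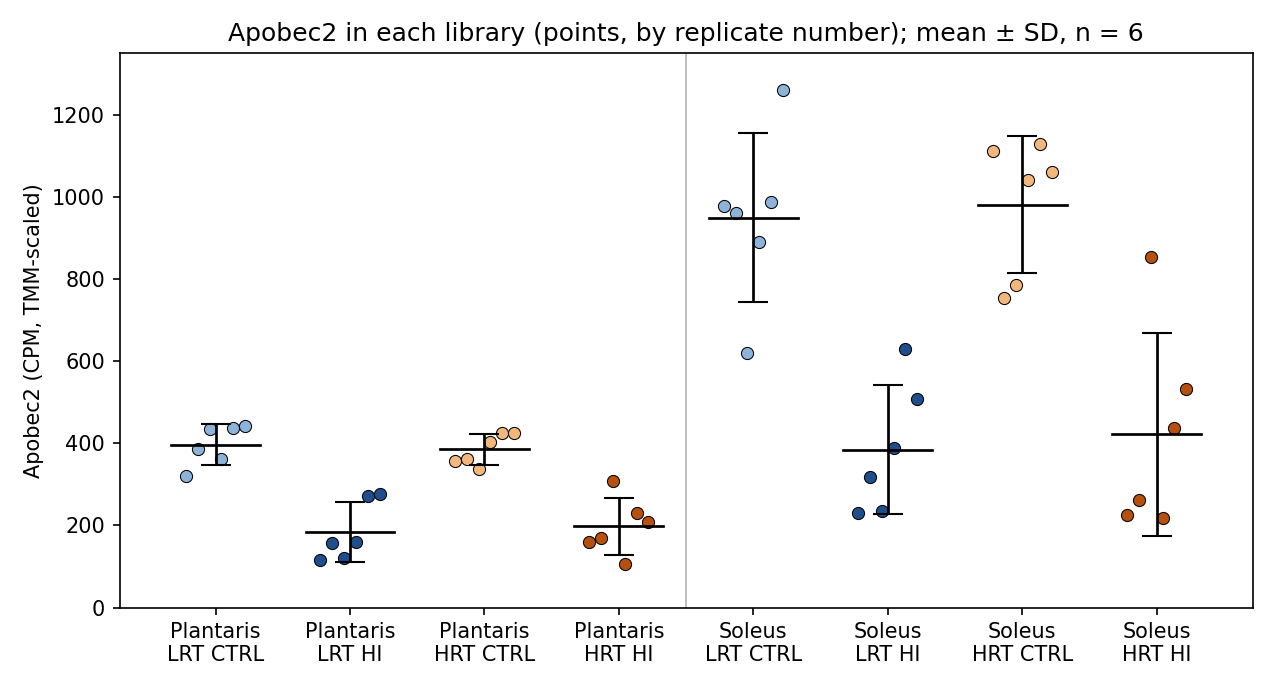
Apobec2 level in CPM (y axis, linear from 0) in each of the 48 libraries, by muscle, line and treatment (x axis). Points are libraries in order of replicate number, and bars are the mean ± SD of 6. CTRL soleus means were 949 and 981 CPM, and the HI means of the same muscle were 385 and 422 CPM.

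As means ± SD (n = 6 each), LRT plantaris had 397 ± 49.7 CPM in CTRL and 184 ± 72.5 CPM in HI, and HRT plantaris had 385 ± 37.9 CPM and 198 ± 69.4 CPM. In soleus, LRT had 949 ± 205 CPM in CTRL and 385 ± 158 CPM in HI, and HRT had 981 ± 167 CPM and 422 ± 247 CPM. In ascending order the groups were LRT HI and HRT HI plantaris, LRT HI soleus, HRT CTRL and LRT CTRL plantaris, HRT HI soleus, and LRT CTRL and HRT CTRL soleus. Each pair of neighbours in that order overlapped in range. Immobilized soleus thus had about the Apobec2 level of control plantaris, with LRT HI soleus and HRT CTRL plantaris both at a mean of 385 CPM.

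The fitted log2 fold change of HI against CTRL was -1.18 in LRT plantaris (SE 0.27, 95% interval -1.71 to -0.64) and -1.03 in HRT plantaris (SE 0.27, -1.56 to -0.49). In soleus it was -1.27 in LRT (SE 0.26, -1.81 to -0.74) and -1.16 in HRT (SE 0.27, -1.69 to -0.62). These correspond to levels lower by 2.26-, 2.04-, 2.42- and 2.23-fold in that order. In the same comparisons edgeR's quasi-likelihood test called 13.6%, 5.85%, 6.58% and 8.23% of tested genes lower at an adjusted p under 0.05. In all 4 of them 1.04% were called lower. Apobec2 was chosen on this contrast, so these shares stand beside its values only and nothing is read from them.

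The fitted changes of the lines and muscles lay close together in the fit over all libraries. LRT minus HRT, the log2 change with HI differed by -0.15 in plantaris (95% interval -0.89 to 0.59) and by -0.11 in soleus (-0.86 to 0.63). Plantaris minus soleus, it differed by 0.10 in LRT (-0.65 to 0.85) and by 0.13 in HRT (-0.63 to 0.89). That fit takes the muscles as independent. With same-numbered libraries as 1 rat, the differences between muscles were 0.15 (SE 0.18) in LRT and 0.31 (SE 0.18) in HRT, against an SE of 0.37 and 0.38 without the block, and the within-pair mean of plantaris minus soleus in HRT was -1.34 in CTRL (SD 0.20, n = 6) and -0.98 in HI (SD 0.39, n = 6). In bulk muscle, fewer cells of a type and less RNA per cell cannot be told apart.

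Apobec2 was higher in soleus than in plantaris in each line and treatment, a comparison that the choice of the gene did not use but that draws on the same libraries. In CTRL muscle the log2 fold change of plantaris against soleus was -1.36 in LRT (SE 0.27, adjusted p = 9.71e-05, edgeR's quasi-likelihood test) and -1.40 in HRT (SE 0.27, adjusted p = 3.97e-05), and the values did not overlap, which was so for 10.7% and 11% of tested genes. Soleus held 2.58- and 2.63-fold more. In HI muscle it was -1.27 in LRT (SE 0.29, adjusted p = 0.000833) and -1.26 in HRT (SE 0.29, adjusted p = 0.000543), and here the ranges overlapped, with 4 of 6 plantaris values below every soleus value. The share of tested genes called lower in plantaris was 15.6% in LRT CTRL, 19.9% in HRT CTRL, 14.1% in LRT HI and 17.2% in HRT HI, and 6.83% were called lower in all 4.

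Exact two-sided permutation tests of log2 CPM over the 6 libraries a group gave p = 0.0022 in LRT CTRL and in HRT CTRL, the smallest that 6 against 6 allows, with an adjusted p of 0.0087 over 8 such tests. In HI muscle the exact permutation p was 0.015 in LRT (adjusted 0.040) and 0.032 in HRT (adjusted 0.065), so the HRT HI difference passed the threshold in edgeR but not in this test, which leaves the replicate numbers out. An exact permutation test over the 6 same-numbered pairs, added after seeing the data, gave p = 0.031 in each line and treatment, the smallest that 6 pairs allow (adjusted 0.031 over 4 tests). In HRT HI the soleus was higher in 6 of 6 pairs, with ratios from 1.41 to 2.77. Read by replicate number, the soleus library held more Apobec2 than the plantaris library with the same number in 24 of 24 pairs. The ratio ran from 1.41 to 3.12, with a median of 2.32.

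Apobec2 did not pass the test for a difference between the lines in either muscle or treatment. The log2 fold change of LRT against HRT was 0.03 in CTRL plantaris (95% interval -0.50 to 0.55, adjusted p = 0.986, edgeR's quasi-likelihood test) and -0.01 in CTRL soleus (-0.53 to 0.52, adjusted p = 0.995). In HI muscle it was -0.12 in plantaris (-0.65 to 0.40, adjusted p = 0.845) and -0.12 in soleus (-0.64 to 0.40, adjusted p = 0.817). By that fit the intervals reach a difference of 1.57-fold in HI muscle. The fit used 1 estimate of spread per gene for all 8 groups. The SD of log2 CPM was 0.52 to 0.79 in the HI groups and 0.14 to 0.33 in the CTRL groups. Intervals for comparisons within HI may thus be too narrow, and a larger line difference in HI is not excluded. Intervals within CTRL may be too wide. Of all tested genes, 0.525%, 1.45%, 2.42% and 12.2% were called between the lines in CTRL plantaris, CTRL soleus, HI plantaris and HI soleus.

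**Figure D2:**
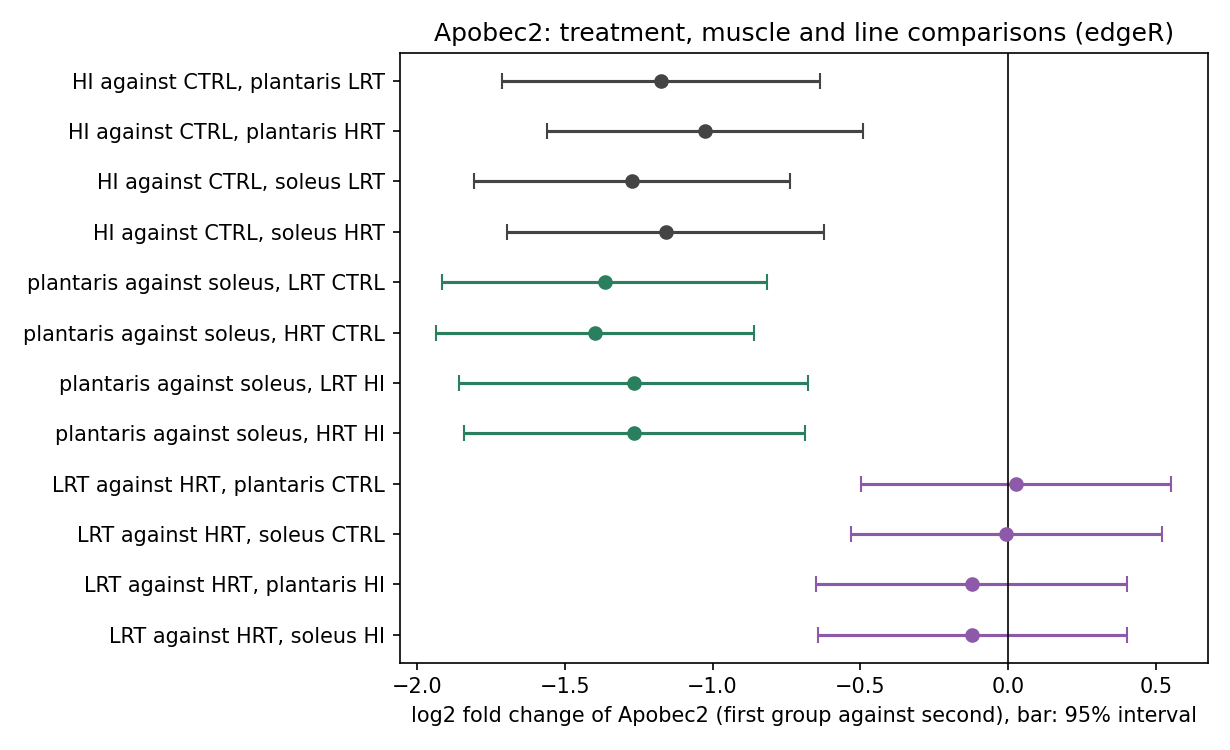
Fitted log2 fold change of Apobec2 (x axis) in the 12 comparisons of treatment, muscle and line (rows), with 95% intervals as bars. The HI and the muscle comparisons lie between -1.03 and -1.40, and the 4 line comparisons lie between -0.12 and 0.03 with intervals that cross 0.

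Immobilized rats differed from each other more than control rats did. The SD of log2 CPM within a group was between 0.52 and 0.79 in the 4 HI groups and between 0.14 and 0.33 in the 4 CTRL groups. The highest library of an HI group had 2.40 to 3.90 times the CPM of the lowest, against 1.26 to 2.03 times in the CTRL groups. No test of this difference in spread was made.

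Libraries high in plantaris were mostly high in soleus too. Each library was expressed as its log2 CPM minus its group mean, and plantaris and soleus libraries with the same replicate number in a line and treatment were set against each other. The labels do not say that the number marks the rat. Over the 24 pairs Pearson's r was 0.83 (permutation p = 0.0001, adjusted 0.0005 over 5 relations) and Spearman's rho was 0.87 (permutation p = 6e-05, adjusted 0.0003), and 19 of 24 pairs deviated in the same direction. Without the 2 pairs farthest from the median in plantaris r was 0.76. Over the other tested genes the same r had a median of 0.23, and 0.826% of them reached that of Apobec2.

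The relation passed the test in HI pairs and did not pass it in CTRL pairs. In the 12 HI pairs r was 0.92 (permutation p = 0.00021) and Spearman's rho 0.94 (permutation p = 4e-05, adjusted 8e-05 over both treatments), and 11 of 12 pairs deviated in the same direction. In the 12 CTRL pairs r was 0.22 (permutation p = 0.526) and rho 0.54 (permutation p = 0.0837, adjusted 0.0837), and 8 of 12 did. The CTRL value of r depended on single pairs. Without LRT CTRL replicate 3, which was above its group mean in plantaris and the lowest in soleus, it was 0.55. It was 0.08 without LRT CTRL replicate 6 and 0.12 without HRT CTRL replicate 3. Over the other tested genes the median r was 0.34 in HI pairs and 0.12 in CTRL pairs. This split was chosen after the data had been seen, and the difference between both values of r was not tested. By line and treatment, with 6 pairs each, r was 0.96 in LRT HI, 0.90 in HRT HI, 0.67 in HRT CTRL and -0.04 in LRT CTRL, and rho was 0.94, 0.94, 0.43 and 0.49 in that order. With 1 pair left out, r in LRT CTRL ran from -0.47 (without replicate 6) to 0.58 (without replicate 3). In HRT CTRL it ran from 0.49 (without replicate 3) to 0.94 (without replicate 1). HRT HI replicate 3 was the highest of its group in both muscles, with 309 CPM in plantaris and 855 CPM in soleus. HRT HI replicate 4 was the lowest in both, with 106 and 219 CPM. In LRT HI, replicates 5 and 6 were the highest pair in plantaris (271 and 278 CPM) and in soleus (629 and 507 CPM), and replicates 1 and 3 the lowest pair in both.

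**Figure D3:**
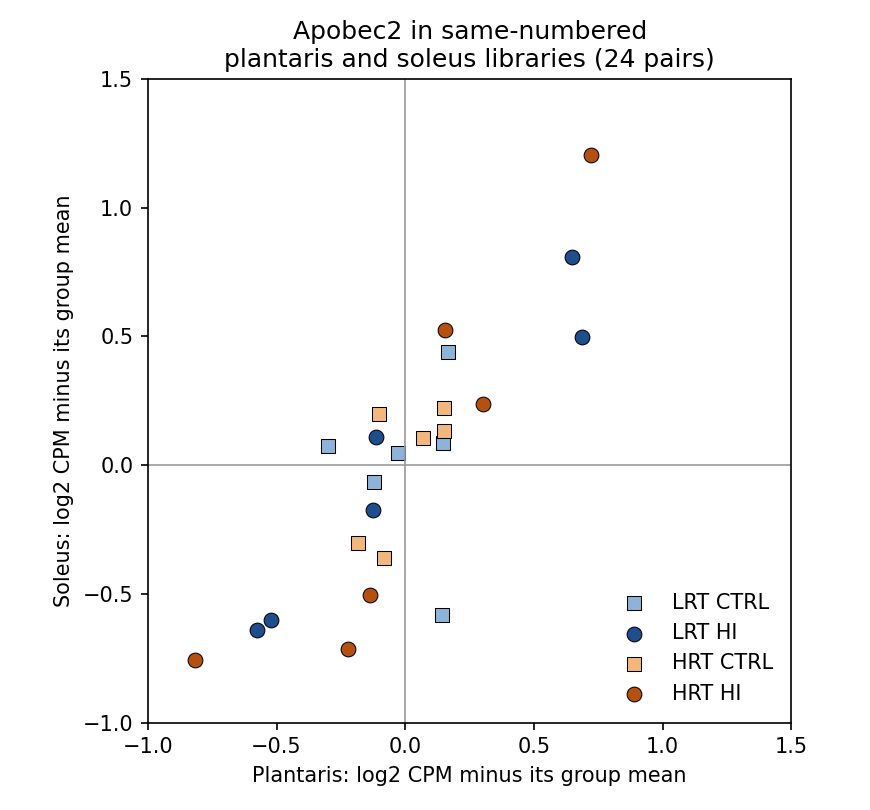
Deviation of Apobec2 log2 CPM from its group mean in plantaris (x axis) and in the same-numbered soleus library (y axis), for 24 pairs coloured by line and treatment. Circles are HI and squares are CTRL. The HI pairs run along the diagonal (r = 0.92), and the CTRL pairs stay nearer to the centre (r = 0.22, rho = 0.54).

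RNA quality and depth were set against the same deviations within each muscle. For RIN, r was 0.13 in plantaris (permutation p = 0.586) and 0.25 in soleus (permutation p = 0.281). For the log2 library total, r was 0.43 in plantaris (permutation p = 0.0890, adjusted 0.223) and 0.03 in soleus (permutation p = 0.920). None of these 4 relations passed the test over 24 libraries.

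The genes most like Apobec2 over the 48 libraries were sought by Pearson's r of log2 CPM. Those named are the 8 nearest among the 1147 other tested genes with a symbol. Phtf2, a putative homeodomain factor, ranked 1 of 16959 genes with r = 0.96. It was followed by Mamdc2 at 0.93 (rank 4), Lrrfip1 at 0.92 (rank 7), the dynein heavy chain gene Dnah5 at 0.92 (rank 8), Spsb4 at 0.92 (rank 9), Osgin2 at 0.92 (rank 10), the glutathione peroxidase gene Gpx1 at 0.92 (rank 11) and Trim72, which acts in repair of the muscle cell membrane, at 0.92 (rank 12). Over all tested genes the median r was -0.03, and 259 genes exceeded 0.8. These values share the differences between muscles and treatments that set the groups apart, so they describe a like order of the groups.

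When the group means were taken out, Phtf2 again ranked first, with r = 0.86 over the 48 deviations. The next by that measure were Slc41a3, a magnesium transporter gene, at 0.84 (rank 2), Dnah5 at 0.82 (rank 3), the fibroblast growth factor gene Fgf1 at 0.82 (rank 4), Myoz3, which encodes a Z-disc protein, at 0.82 (rank 5), the non-muscle myosin gene Myh10 at 0.81 (rank 7), Opn4 at 0.80 (rank 9) and Hspa1l at 0.79 (rank 13). Only 9 genes exceeded 0.8 by this measure. These 14 genes were matched to Apobec2 in the same libraries, and those matched over the 48 libraries share its lower level with HI by that choice, so their changes are given without a test. Their fitted log2 fold changes of HI against CTRL ran from -2.34 (Slc41a3) to -0.68 (Osgin2) in LRT plantaris, from -2.87 (Dnah5) to -0.41 (Lrrfip1) in HRT plantaris, from -2.40 (Dnah5) to -0.85 (Trim72) in LRT soleus and from -1.97 (Dnah5) to -0.68 (Myoz3) in HRT soleus. Phtf2 had -0.71, -0.70, -0.94 and -1.06 in the same order. The Phtf2 mean in soleus was 436 CPM in LRT CTRL and 226 CPM in LRT HI.

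The genes linked to deamination and removal of DNA methylation were looked at because members of the AID/APOBEC family have been proposed to act there with Mbd4 and Gadd45 proteins. Symbols could be paired with identifiers for 3 of the 12 genes of that list and for 1 of the 3 AMP deaminase genes, through tables of genes that the study had selected on these samples, so their direction is not independent evidence. Across all tested genes 15.1%, 5.11%, 7.36% and 7.95% were called higher with HI in LRT plantaris, HRT plantaris, LRT soleus and HRT soleus. Gadd45a, a stress-induced gene, rose in each HI comparison, with log2 fold changes of 3.29 in LRT plantaris, 2.07 in HRT plantaris, 1.96 in LRT soleus and 1.67 in HRT soleus. Without HRT HI replicate 4 the HRT plantaris change was 1.36 and no longer passed (adjusted p = 0.052, edgeR). Mbd4, which encodes a DNA glycosylase that removes bases left by deamination, rose in HRT plantaris (0.75) and HRT soleus (1.07) and had 0.18 in LRT plantaris and 0.59 in LRT soleus, and it was called in 1 comparison with limma-voom or with each muscle fitted alone. Its HRT plantaris call was lost in 7 of the 12 fits that left out 1 library. Tet1, which encodes an enzyme that oxidizes methylcytosine, fell in LRT plantaris (-1.24) and had -0.50, -0.00 and 0.53 in HRT plantaris, LRT soleus and HRT soleus. The deviations of Gadd45a ran opposite to those of Apobec2 (r = -0.51), while Mbd4 (-0.02) and Tet1 (0.19) showed little relation.

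Ampd3, an AMP deaminase gene of adenine nucleotide breakdown, is not a member of the AID/APOBEC family. It rose in LRT plantaris (log2 fold change 4.76), and had 0.96 in LRT soleus and -0.05 in HRT soleus, which did not pass. The HRT plantaris change was 2.82 and passed, but it rested on HI replicates 4 and 1. HI replicate 4 had 469 CPM and replicate 1 had 152 CPM, while the other 4 HI libraries ran from 16.7 to 25.5 CPM beside 13.1 to 21.5 CPM in CTRL. Without HRT HI replicate 4 the change was 1.54 and did not pass (adjusted p = 0.080, edgeR), and the call was also lost with limma-voom and when each muscle was fitted alone. Mean Ampd3 was 11.4 CPM in LRT CTRL plantaris and 309 CPM in LRT HI plantaris. The LRT HI values were uneven too. Replicates 1 and 3 had 744 and 695 CPM and the others ran from 28.6 to 162 CPM, beside 7.37 to 18.5 CPM in CTRL.

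Among the genes of mitochondrial energy metabolism, 24 members were tested, all of them paired through the same tables of genes selected on these samples. Counts and medians of the lists are therefore set beside those of the 1148 tested genes with a symbol, of which 38.6%, 21.9%, 18.6% and 20.8% fell and 29.6%, 15.7%, 18.2% and 15.7% rose in LRT plantaris, HRT plantaris, LRT soleus and HRT soleus, with median log2 changes of -0.37, -0.26, -0.15 and -0.10. With HI, 21 fell and 1 rose in LRT plantaris, 18 fell in HRT plantaris, 10 fell in LRT soleus and 7 fell in HRT soleus, with median log2 changes of -1.02, -0.70, -0.52 and -0.45. The median over all tested genes was 0.01 to 0.02, a distance that the choice of genes by the study enters. The HRT soleus count ranged from 2 to 12 with the choice of fit, and the LRT soleus count rose to 20 in 1 of them. With 1 library left out, the HRT plantaris count fell to 11 (without HI replicate 4). The LRT soleus count ran from 4 (without HI replicate 1) to 20 (without HI replicate 5). The HRT soleus count ran from 1 (without HI replicate 1) to 12 (without HI replicate 6). In LRT plantaris 21 fell in each of these fits. The study listed genes by their change with HI in any comparison. A member listed for its fall in LRT plantaris falls there by that choice, so the steady count is not support. The shares of the 1148 genes, which were listed for either direction, do not remove this. The same holds for the other lists. Perm1, a muscle regulator of oxidative metabolism, had log2 changes of -2.32, -1.55 and -1.41, which passed, and -1.10 in HRT soleus, which did not, and its LRT soleus call was lost in 2 of 12 fits with 1 library left out. Oxct1, which encodes an enzyme of ketone body use, fell in each comparison, with -1.52, -1.02, -1.32 and -1.04, and the calls in HRT plantaris and HRT soleus were each lost in 2 of 12 fits with 1 library left out. Ckmt2, the mitochondrial creatine kinase gene, had -1.36, -1.15 and -0.63, which passed, and -0.55 in HRT soleus, which did not, and its LRT soleus call was lost in 5 of 12 such fits (adjusted p up to 0.128, edgeR). The riser was Ucp3, a mitochondrial carrier gene, at 1.47 in LRT plantaris. That call was lost in 4 of 12 such fits, with the lowest change, 0.79, without LRT HI replicate 5 (adjusted p = 0.232, edgeR).

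The 19 genes of the sarcomere and of calcium handling gave 13 falls in LRT plantaris, 1 fall and 1 rise in HRT plantaris, 4 falls and 1 rise in LRT soleus, and 3 falls and 1 rise in HRT soleus. Their median log2 changes were -1.12, -0.56, -0.68 and -0.38. Of the tested genes with a symbol, 38.6%, 21.9%, 18.6% and 20.8% fell, so the falls outside LRT plantaris were near or below that share. Mylpf, Myoz1, Casq1, Casq2, Atp2a1, Pvalb and Pln of this list are also among the fibre markers. Between settings the calls in HRT plantaris reached 7 and those in LRT soleus 10. With 1 library left out, the falls in LRT soleus ran from 2 (without HI replicate 1) to 9 (without HI replicate 5). The falls in HRT plantaris ran from 0 to 3, moving in 8 of 12 fits, and the rises in HRT soleus from 1 to 3, moving in 5 of 12. Actc1, cardiac actin, fell in LRT plantaris (-1.12), LRT soleus (-2.21) and HRT soleus (-1.55), and had -0.49 in HRT plantaris. The LRT plantaris call was lost in 6 of 12 fits with 1 library left out, and the LRT soleus change was -3.00 without HI replicate 6. Fsd2 fell in LRT plantaris (-2.14) and had -1.03, -0.84 and -0.45 in the others, which did not pass. Pvalb, a calcium buffer of fast fibres, rose in LRT soleus (3.23), from a mean of 1.5 CPM to 14.2 CPM, and had -1.04, -0.39 and 1.47 in LRT plantaris, HRT plantaris and HRT soleus. Its LRT soleus change was 2.53 without HI replicate 5 and 3.85 without CTRL replicate 3, and it passed in both.

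Of the 10 myogenic regulators and synapse genes, 4 rose and 2 fell in LRT plantaris, 2 rose and 1 fell in HRT plantaris, 2 rose and 2 fell in LRT soleus, and 3 rose and 3 fell in HRT soleus. These small counts are to be read beside the shares of genes with a symbol given above, and they depended on single libraries. With 1 left out, the rises in HRT plantaris ran from 1 to 4 and moved in 10 of 12 fits, the falls in LRT soleus went to 1 in 11 of 12, and the falls in HRT soleus went to 1 in 6 of 12. Hdac4, a histone deacetylase that responds to loss of nerve input, rose in each comparison, by log2 2.83, 2.29, 2.44 and 2.02. Runx1 rose in LRT plantaris (3.15) and HRT plantaris (1.72) and had 1.04 and 0.34 in soleus, and under 4 other settings it was called in 1 comparison. The HRT plantaris call was lost in 8 of 12 fits with 1 library left out, with the lowest change, 0.79, without HRT HI replicate 4 (adjusted p = 0.392, edgeR), and without LRT HI replicate 1 the LRT plantaris change was 2.43, which passed. Myog, which encodes myogenin, rose in LRT plantaris (2.62) and had 1.26, 0.01 and -0.14 in the other comparisons, which did not pass. With 1 library left out, its HRT plantaris change ran from 0.42 to 1.55 and passed in 3 of 12 fits.

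Within groups, most mitochondrial and many sarcomere genes deviated in the same direction as Apobec2, as the plot of likeness by list shows. The median r over deviations was 0.62 for the mitochondrial list (range 0.14 to 0.78) and 0.59 for the sarcomere and calcium list (-0.12 to 0.82), against -0.02 over all tested genes and 0.12 over the 1147 tested genes with a symbol. Members of both lists were paired through genes the study had selected on these samples, and both lists had negative median changes with HI. Genes with a symbol went both ways, and 29.6% rose and 38.6% fell in LRT plantaris. Their median r is thus not a matched baseline. The highest in the mitochondrial list was Perm1 at 0.78. The myogenic list was divided, with a median of -0.15, from -0.72 for Hdac4 to 0.72 for Vgll2, a transcription cofactor gene of muscle. All these values come from the same 48 libraries and are a description.

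**Figure D4:**
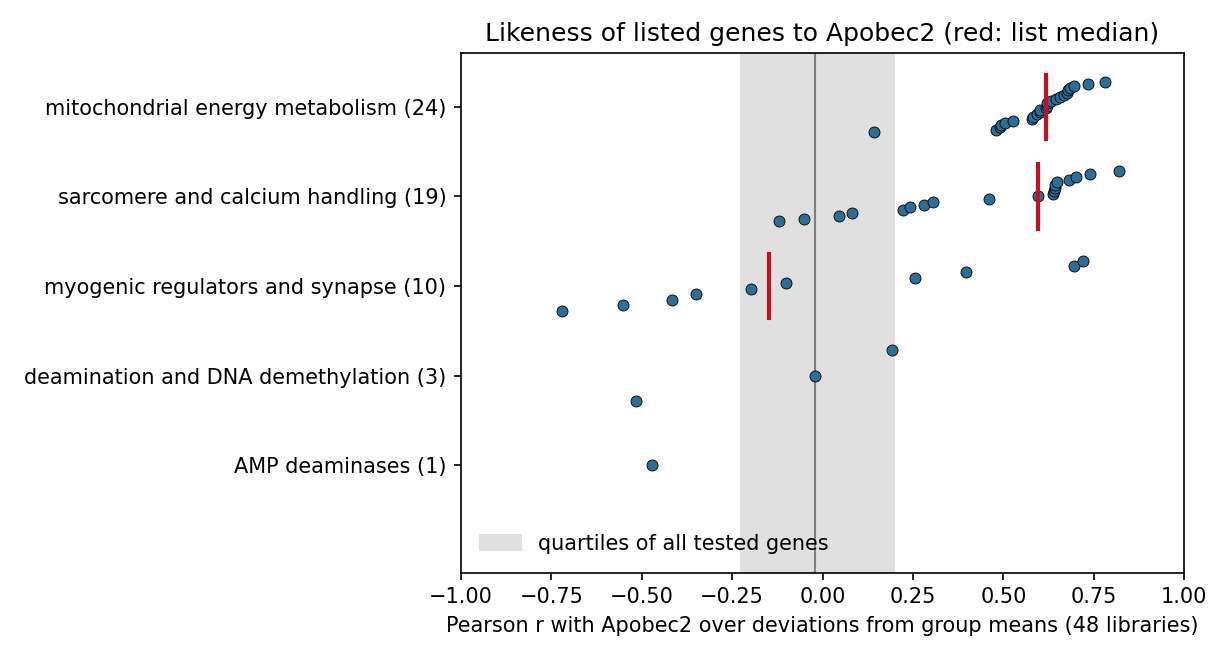
Pearson's r with Apobec2 over deviations from the group means (x axis) for each tested gene of 5 lists (rows, with the number of genes). The red lines are the medians of lists with more than 3 genes, at 0.62, 0.59 and -0.15, and the grey band spans the quartiles of all tested genes, from -0.23 to 0.20.

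Markers of other cells were also paired with identifiers only through genes that the study had selected on these samples, so their calls stand beside the shares of the 1148 genes given above and are not independent evidence. With HI, 8, 6, 2 and 5 of the 8 fibroblast markers fell in LRT plantaris, HRT plantaris, LRT soleus and HRT soleus, and the counts with 1 library left out ran from 5 to 8 (5 without HI replicate 3), 4 to 8, 2 to 4 (4 without HI replicate 6) and 3 to 5 (3 in 5 of 12 fits). Their summed level in plantaris ran from 706 to 1470 CPM in LRT CTRL and from 262 to 879 CPM in LRT HI. Of the 6 endothelial markers, 2, 3, 4 and 4 fell, while Clec1a, a lectin receptor gene, rose in LRT plantaris (log2 fold change 0.50), HRT plantaris (0.73) and HRT soleus (1.07). The falls ran from 1 to 3 in LRT plantaris with 1 library left out and from 1 (without CTRL replicate 6) to 4 in HRT plantaris, and the LRT plantaris call of Clec1a was lost in 3 of 12 fits. Of the 7 immune markers, 1 rose in each of the first 3 comparisons and 6 rose in HRT soleus, where the summed level ran from 10.9 to 20.6 CPM in CTRL and from 23.3 to 56.2 CPM in HI, and 4 rose without CTRL replicate 6. The single calls in HRT plantaris and in LRT soleus were not stable, and those counts moved in 8 of 12 fits each, from 0 to 3 and to 0. The LRT plantaris count went from 1 to 2 without HI replicate 4. All 5 red blood cell markers rose in HRT soleus, where their sum in HI had a median of 1144 CPM and a maximum of 10499 CPM. Without HI replicate 5 the change of Hbb, a haemoglobin gene, went from 2.61 to 1.31 and no longer passed (adjusted p = 0.062, edgeR), and 4 of the 5 rose. Some fibre markers were called with HI as well. Of the 6 fast fibre markers, 4 fell in LRT plantaris and 1 rose in LRT soleus, and 0 were called in either HRT muscle, although with 1 library left out 1 or 2 rose in HRT soleus in 5 of 12 fits (2 without HI replicate 6). Their sum in LRT plantaris ran from 20246 to 27473 CPM in CTRL and from 6550.0 to 17994 CPM in HI. Of the 5 slow fibre markers, 2 fell in LRT plantaris, 1 fell in LRT soleus and 1, Pln, rose in HRT plantaris and in HRT soleus. Their sum in LRT soleus ran from 16289.8 to 24655 CPM in CTRL, with a median of 22274 CPM, and from 5040.0 to 17674 CPM in HI, with a median of 7530.2 CPM. In HRT soleus the medians of that sum were 20608 CPM in CTRL and 12388 CPM in HI, and the ranges overlapped in both lines. Without LRT HI replicate 5 or 6, 3 slow markers fell in LRT soleus. In HRT plantaris 2 slow markers fell without HI replicate 5 and 1 without HI replicate 6. In HRT soleus 1 fell without HI replicate 5. The median r with Apobec2 over deviations was 0.56 for the slow markers (range 0.08 to 0.69) and 0.18 for the fast markers (-0.12 to 0.64). In CTRL muscle 0 of the 8 fibroblast markers in LRT and 3 in HRT differed between muscles, and 0 of the 6 endothelial, 7 immune and 5 red blood cell markers did in either line. Of all tested genes, 15.6% in LRT CTRL and 19.9% in HRT CTRL were called lower in plantaris, and 17% and 18.9% higher. With lists this short, nothing is read from these counts. No marker list had a member outside the tested genes, and the part of these cells in the Apobec2 values was not tested.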

How the data were processed

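The deposited values are estimated counts per gene, which the authors obtained with Salmon 0.9.1 against the rat transcripts of Ensembl release 91 (Rnor_6.0) and summed with tximport, scaled for transcript length. They were rounded to whole numbers. With edgeR 4.0.16 in R 4.3.3, 16960 genes kept by filterByExpr were scaled by TMM and fitted by quasi-likelihood over all 48 libraries, with group and RIN as terms, and p-values were Benjamini-Hochberg adjusted over all tested genes. The deposited labels gave the 8 groups, and 0 columns were left unmapped. Replicates of a group were separate rats. No 2 libraries of a group agreed within sampling noise, with a mean chi-square of at least 12.0 per gene in 120 pairs. Log2 CPM used a prior count of 2. Permutation tests used 100000 resamples within groups, and exact tests all arrangements. Intervals are at 95%.

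Apobec2 and the gene and marker lists were chosen with earlier results of these data known. Named genes followed a rule that took Apobec2, every deamination, demethylation and AMP deaminase gene with an identifier, the 3 members of each other list with the largest mean absolute change with HI, and the 8 genes with a symbol most like Apobec2 by each measure. Pln, Ucp3, Vgll2, Clec1a and Hbb were named after their values were seen. Symbols for 1148 of the 31998 identifiers came from gene tables of the study, and its fold changes and p-values were not used. The RNA kit differs between the labels and the methods of the study, so whether strand was used in counting is not settled. On simulated data, edgeR recovered 85% of genes changed by 1 on the log2 scale and 96% of those changed by 1.5 in the plantaris against soleus comparison of LRT CTRL, over 16960 genes. The simulated libraries were independent, with the same spread per gene in all groups, and the changed genes had a mean above 1 CPM. These rates therefore do not cover the wider spread in HI or the shared deviations of same-numbered libraries. The alternatives were DESeq2 1.42.0 size factors and Wald test, library totals, limma-voom (limma 3.58.1), no RIN, other filters, blocks, each muscle alone and each library left out. Leaving out libraries for the named genes and lists, an exact test over same-numbered pairs, and rho and left-out pairs within HI or CTRL were chosen after seeing the data.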

Additional observations from a re-analysis of the deposited data

How the results depend on the processing

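Apobec2 kept its direction in the 4 HI comparisons, and its direction and call in the 4 muscle comparisons, under each of the 9 other settings and with each library left out. Over those settings the HI log2 changes ran from -1.24 to -0.97 in LRT plantaris, -1.09 to -0.88 in HRT plantaris, -1.32 to -1.16 in LRT soleus and -1.32 to -1.11 in HRT soleus. With 1 library left out they ran from -1.35 to -1.08, -1.17 to -0.90, -1.45 to -1.13 and -1.48 to -1.002. The muscle comparisons had adjusted p-values of at most 0.00170 over the settings and 0.0113 with 1 library left out. Differences between the lines were near 0 and changed sign without passing the test, and the cause was not tested. CTRL soleus gave 0.0005 with DESeq2 size factors and with its Wald test and 0.0088 with each muscle alone, and CTRL plantaris gave -0.0683 with library totals. With 1 library left out, the line difference ran from -0.0489 to 0.0787 in CTRL plantaris, from -0.1375 to 0.0807 in CTRL soleus, from -0.2912 to 0.0314 in HI plantaris (the highest without HRT HI replicate 3) and from -0.2942 to 0.1823 in HI soleus (the highest without HRT HI replicate 3). Library totals moved the median change of all genes with HI by 0.24, 0.16, 0.14 and 0.06 in LRT plantaris, HRT plantaris, LRT soleus and HRT soleus.

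With the replicate number as a block the HI changes were -1.22, -1.06, -1.31 and -1.23, and no call of Apobec2 changed in the muscle and line comparisons. With same-numbered plantaris and soleus libraries as 1 rat, the muscle differences were -1.26, -1.35, -1.11 and -1.04, all passing. Deviations of same-numbered libraries over all genes had r over 0.1 in 22 of 24 pairs (mean 0.23), and 22 of 24 were nearest to their own number, with r over 0.1 in 6 of 6 pairs of LRT HI, HRT HI and LRT CTRL and in 4 of 6 of HRT CTRL. The labels do not state that the number marks the rat.

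The relation between muscles was 0.79 with library totals and 0.22 in CTRL pairs only (rho 0.54). The CTRL pairs did not pass by either measure. With 1 CTRL pair left out, r ran from 0.08 (without LRT CTRL replicate 6) to 0.55 (without LRT CTRL replicate 3). Of the 8 genes most like Apobec2 over 48 libraries, 4 were shared when Spearman's rho was used. Of the counts over lists, 245 of 270 stayed within 1.5 times, as did 218 of 241 counts of calls of single genes.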
